A study of Mus musculus with 8 samples.

Results

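The 10 genes of the Notch pathway were followed in the embryonic mouse tongue: the receptor genes Notch1 and Notch2, the ligand genes Dll1, Jag1 and Jag2, and the Hes and Hey genes Hes1, Hes6, Hey1, Hey2 and Heyl. They were found through the array's annotation, taking each probe set (a group of short probes read together as 1 value) that names exactly 1 of these genes. All 10 genes had such a probe set, 18 in all, among the 34945 probe sets and 18193 genes of the array named in this way. RNA came from whole tongue buds at embryonic day 13.5 and was read on one-colour Affymetrix arrays, 4 per group. Control embryos carried Alk5 fl/fl without Cre. Mutant embryos carried the same floxed alleles with Wnt1-Cre, a Cre recombinase driven by Wnt1 regulatory sequence and active in neural crest cells. The design is meant to remove Alk5 from neural crest cells and the cells that arise from them, while muscle, endothelium and epithelium keep it. Alk5 is the type I receptor of TGF-beta, encoded by Tgfbr1. Both groups share the C57BL/6J strain label and the floxed alleles, and no sex is given for the samples. No group carried Wnt1-Cre without the floxed alleles. An effect of Wnt1-Cre by itself and one of losing the receptor therefore cannot be told apart. The comparison addresses gene expression in the tongue when cranial neural crest is meant to lack this receptor.

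Notch receptors are cut when a Delta or Jagged ligand on a neighbouring cell binds them. The freed intracellular part enters the nucleus, joins the DNA-binding protein Rbpj and its coactivators, and switches on Hes and Hey genes, which encode repressors of the basic helix-loop-helix class. In developing skeletal muscle, Dll1 signalling to Notch on progenitors holds back differentiation, and in vessels Dll4, Jag1, Notch1, Notch4, Hey1 and Hey2 act in arterial endothelium and the mural cells around it.

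The values are log2 expression values, so that a difference of 1 is a doubling of measured signal. A probe set's level depends on its own probes, and levels are not compared between genes. The array medians lay between 5.96 and 6.01, and a group mean under them is called dim here, since no detection call was used. The setting named below as dim genes left out used a stricter cut, the median of all gene means, and kept 9096 of 18193 genes. The targeted gene, Tgfbr1, read 12.03, 12.12, 11.97 and 11.89 in controls and 12.42, 12.42, 12.37 and 12.36 in mutants on its brightest probe set, 1420895_at, so it was higher where the receptor should be lost (log2 change 0.39, SE 0.058, limma adjusted p = 0.0034). Its 2 dimmer sets were higher too, by 0.82 and 0.52. Whether any of these sets lies inside the deleted exon is not given in the sources used here, so they do not check the labels. Muscle, epithelial and mesenchymal markers of a tongue bud were present: both group means were above the array medians in 11 of 12 skeletal muscle, 12 of 12 epithelial and 8 of 8 cranial mesenchyme markers. Control 3 alone lacked strong Y-linked signal (mean log2 value 3.09 against 8.44 to 8.73 on the other 7 arrays). By this signal control 3 read as female and the rest, all 4 mutants among them, as male, so sex was not balanced between the groups. Controls 1 and 3 lay farthest apart among controls on the second principal component, which held 18.7% of the variance between arrays. Control 1 lay at 18.2, controls 2 to 4 at −8.2 to 3.4 and mutants at −15.2 to 7.1. Results are also given without controls 1 and 3, as a check that does not mark both as outlying. Samples are numbered in the labels with no statement on litters, so p-values measure the spread between these samples.

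Of the 10 genes, Hey2 fell in the mutants and 0 rose. A call here is an adjusted p under 0.05 in limma fitted over all 18193 genes, which called 9.72% of genes, 4.20% of them higher and 5.52% lower; 1 of 10 is close to that background. At an unadjusted p under 0.05 stood 4 of the 10, Hey2, Hes6 and Hes1 lower and Notch2 higher, against 23.8% of all genes. The 4 mutant and 4 control values did not overlap in Hey2 and Hes1, 2 of 10 genes, against 17.8% of all genes. The median log2 change of the 10 was −0.063 against −0.011 over all genes, with 7 negative and 3 positive values. Without controls 1 and 3, 0 of the 10 were called, with Dll1 at −0.04, Jag1 at 0.17, Hes1 at −0.14, Hes6 at −0.28 and Heyl at −0.07. Among the 18 probe sets fitted with all 34945, 1 passed, the single set of Hey2, where 5.94% of all probe sets passed. The SD between arrays of a group had a median over these sets of 0.127 in controls (0.017 to 0.296) and 0.157 in mutants (0.031 to 0.315). The largest control SD was that of Hey2.

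**Figure D1:**
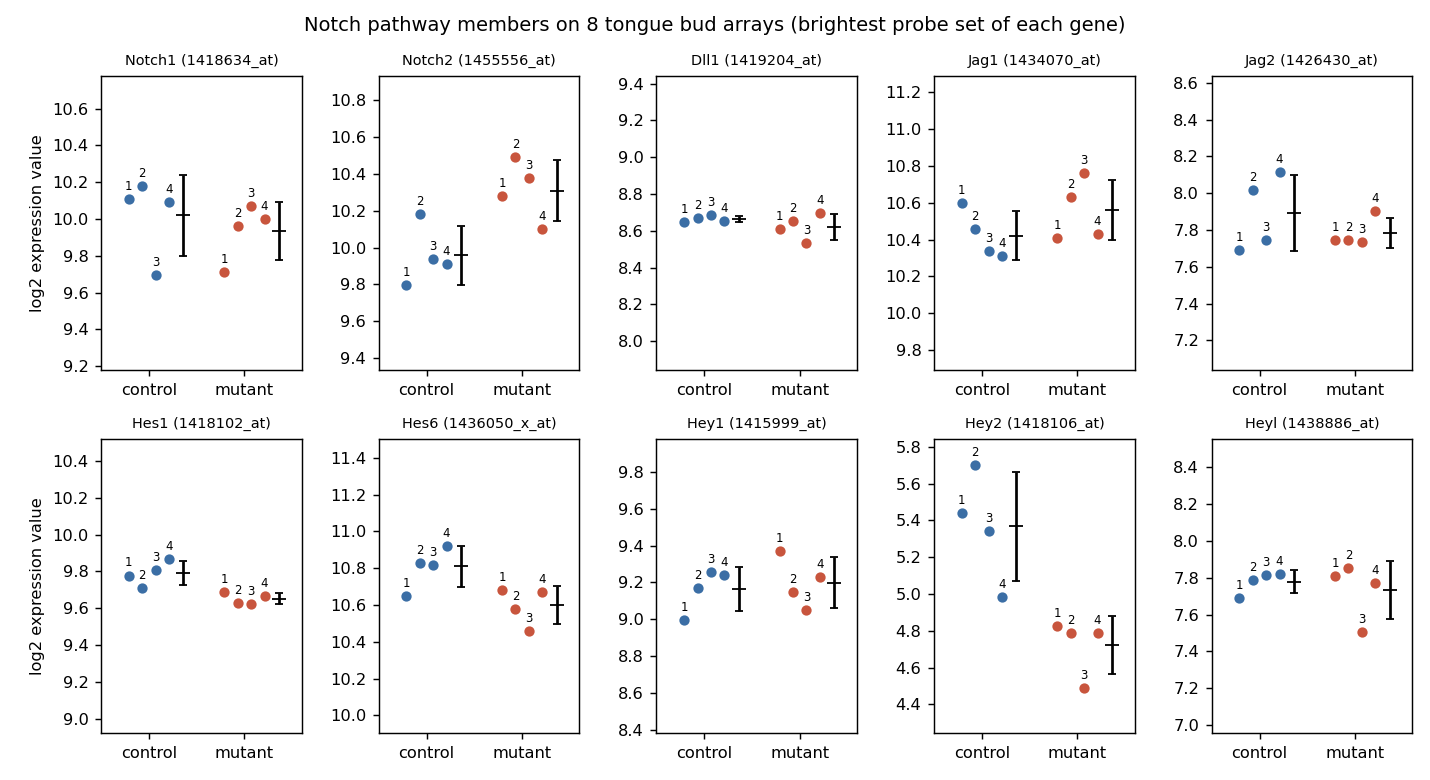
Log2 expression values of the 10 genes (brightest probe set of each) on 4 control and 4 mutant arrays, with array numbers beside the points and the mean ± SD at the right of each group. Each panel spans the same log2 range about its own centre; Hey2 shows mutants at 4.49 to 4.82 under controls at 4.99 to 5.70, and most other panels overlap.

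Notch2, a receptor of mesenchyme, muscle progenitors and vessel walls, was higher on average in the mutants without passing the test. In controls 1 to 4 its brighter probe set, 1455556_at, gave 9.79, 10.18, 9.94 and 9.91, and in mutants 1 to 4 it gave 10.28, 10.49, 10.38 and 10.10. Of the mutants, 1, 2 and 3 lay above all controls and mutant 4 lay below control 2. The control mean was 9.96 ± 0.16 and the mutant mean 10.31 ± 0.17 (SD, n = 4 each). Their log2 difference was 0.36 (SE 0.10, 95% interval 0.13 to 0.58) or 1.28-fold, with a limma adjusted p of 0.0574. The value lay close to the threshold on either side: it passed in 6 of 18 other settings, a tally that, like those for the other genes, leaves out the block on the replicate number, among them without control 2 (0.43, adjusted p = 0.0319), without mutant 4 (0.43, adjusted p = 0.0371) and with each array centred on its median (0.37, adjusted p = 0.039). Without controls 1 and 3 it was 0.27 with an adjusted p of 0.228. The other probe set, 1451889_at, was dim (4.92, 4.92, 4.91 and 5.03 on controls, 5.09, 5.10, 5.13 and 4.92 on mutants) and differed by 0.11 (95% interval −0.03 to 0.25). Here too mutants 1, 2 and 3 lay above the controls and mutant 4 did not.

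Notch1, the receptor of arterial endothelium, epithelium and progenitor cells, was not called in any setting, and its groups overlapped. In its brighter set, 1418634_at, controls 1 to 4 gave 10.11, 10.18, 9.70 and 10.09, mutants 1 to 3 gave 9.71, 9.96 and 10.07, and mutant 4 lay between mutants 2 and 3. Control 3 and mutant 1 were low and the groups overlapped. The log2 change was −0.08 (95% interval −0.34 to 0.18, limma adjusted p = 0.72). It was −0.19 without control 3 (adjusted p = 0.238), −0.20 without controls 1 and 3 (adjusted p = 0.281) and −0.0073 without mutant 1. The second set, 1418633_at, read 7.99, 7.72, 7.5 and 7.33 on controls and 7.35, 7.46, 7.89 and 7.99 on mutants, a log2 change of 0.04 with a wide 95% interval of −0.37 to 0.44. The 2 sets of this gene ordered the arrays differently: control 4 was the lowest of the 8 arrays in the second set and the third highest in the first.

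The ligand Dll1, which myoblasts and differentiating neurons present to their neighbours, was the steadiest of the 10 genes in controls. Its probe set 1419204_at read 8.65, 8.67, 8.68 and 8.65 on controls and 8.61, 8.65, 8.53 and 8.70 on mutants. The mutant values lay on both sides of the controls, with mutant 3 lowest and mutant 4 highest of all 8 arrays. The log2 change was −0.04 (SDs 0.02 and 0.07, n = 4 each), and the 95% interval, −0.15 to 0.07, leaves room for a small change of either sign.

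Jag1, a ligand of vessel walls and epithelium, read higher on average in the mutants in each of its 3 probe sets, none of which passed. The brightest, 1434070_at, read 10.60, 10.46, 10.34 and 10.31 on controls and 10.41, 10.63, 10.76 and 10.43 on mutants, a log2 change of 0.13 (95% interval −0.08 to 0.34, limma adjusted p = 0.441). Control 1 was close to mutant 2, and mutant 3 was the highest array. In the set 1421106_at, mutant 3 was again highest at 8.84, with control 1 next at 8.62, and the set differed by 0.24 (95% interval −0.11 to 0.59). The set 1421105_at read 5.95 to 6.07 on controls and 5.97 to 6.47 on mutants and differed by 0.21 (95% interval −0.01 to 0.43).

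Jag2, a ligand prominent in oral epithelium, read lower on average in both of its sets, with overlapping groups and no call. The brighter set 1426430_at read 7.69, 8.02, 7.74 and 8.12 on controls and 7.75, 7.75, 7.73 and 7.90 on mutants, with a log2 change of −0.11 (95% interval −0.33 to 0.11, limma adjusted p = 0.557). The size depended on which controls were kept: without controls 1 and 3 the change was −0.28 (SE 0.073, adjusted p = 0.0628), and with a single array left out it ran from −0.18 without control 1 to −0.034 without control 4. Mutants 1, 2 and 3 were nearly equal and mutant 4 stood above them. In 1426431_at mutant 4 was again the highest mutant, at 7.40 against 6.93 to 6.99 on mutants 1 to 3, and lay above every control (7.09 to 7.28), while mutants 1 to 3 lay below every control. The change of that set was −0.12 (95% interval −0.36 to 0.12). Epithelial markers were also highest on mutant 4 among the mutants: the mean log2 value of 12 markers was 9.45, 9.61, 9.72 and 9.93 on mutants 1 to 4 and 9.75 to 9.98 on controls, 1 of the 12 fell (Krt18) and 0 rose, and their part in the Jag2 values was not tested.

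**Figure D2:**
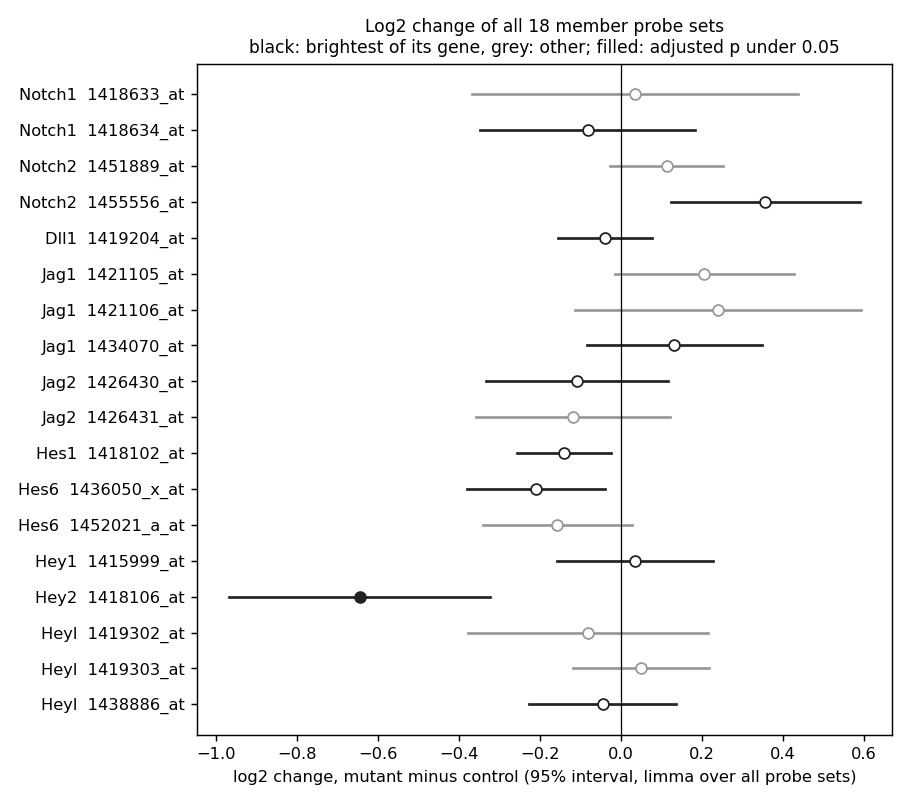
Log2 change (mutant minus control) of the 18 probe sets with 95% intervals from limma over all probe sets, with the brightest set of each gene in black and the others in grey. The set of Hey2 at −0.65 is the filled point that passed the adjusted p of 0.05; the 3 sets of Jag1 lie at 0.13 to 0.24 with intervals that cross 0.

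Hes1, the most widely used Notch target, which keeps progenitors undifferentiated, was slightly lower in the mutants, with no overlap of the groups but no call. Its set 1418102_at read 9.78, 9.71, 9.81 and 9.87 on controls and 9.69, 9.63, 9.63 and 9.67 on mutants. The lowest control, control 2, lay just above the highest mutant, mutant 1. The means of 9.79 ± 0.07 and 9.65 ± 0.03 (SD, n = 4 each) give a log2 change of −0.14 (SE 0.05, 95% interval −0.25 to −0.03) or 0.908 of the control signal, with a limma adjusted p of 0.122. None of 18 other settings brought it past the threshold (lowest adjusted p 0.051).

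Hes6 differs in role from Hes1: it is induced in differentiating myoblasts and neurons and opposes Hes1. Its brighter set 1436050_x_at read 10.65, 10.83, 10.82 and 10.92 on controls and 10.68, 10.58, 10.46 and 10.67 on mutants. Control 1 lay among the mutants, and controls 2, 3 and 4 lay above them. The log2 change was −0.21 (SE 0.073, 95% interval −0.37 to −0.04, limma adjusted p = 0.115), and the second set, 1452021_a_at, differed by −0.16 (95% interval −0.34 to 0.03). The suffixes of both sets mark probes that can match more than 1 transcript, so Hes6 drops out where such sets are not used. Skeletal muscle markers moved on the same arrays: 8 of 12 fell and 0 rose, among them Myog, the gene of myogenin, at −0.38 (adjusted p = 0.0052), and the list mean ran from 9.96 to 10.18 on controls and from 9.29 to 9.59 on mutants. Of 9 neuronal markers, 4 fell and 2 rose, with list means of 7.27 to 7.51 and 7.05 to 7.15. The part of either cell type in the Hes6 values was not tested. In whole tissue, fewer cells of a type and less RNA per cell cannot be told apart.

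Hey1, a Notch and BMP target of vessels and mesenchyme, showed no difference beyond the spread between arrays: 1415999_at read 8.99, 9.17, 9.26 and 9.24 on controls and 9.37, 9.15, 9.05 and 9.23 on mutants. The highest array was mutant 1 and the lowest control 1, with the rest interleaved. The log2 change of 0.03 had a 95% interval of −0.15 to 0.22 (limma adjusted p = 0.848), and its sign turned without control 1 (−0.02), without mutant 1 (−0.02) and without controls 1 and 3 (−0.01). Heyl, a target in mural cells and muscle progenitors, read 7.69, 7.79, 7.82 and 7.82 on controls and 7.81, 7.85, 7.5 and 7.77 on mutants in its brightest set, 1438886_at. Mutant 3 lay apart below the other 7 arrays, and without it the log2 change of −0.04 (95% interval −0.22 to 0.13) turned to 0.03. Mutant 3 was also the lowest mutant in the other 2 sets of Heyl (6.41 in 1419302_at and 5.97 in 1419303_at), whose changes were −0.08 and 0.05.

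Hey2, a repressor of arterial endothelium, smooth muscle and heart and a direct Notch target, fell on its single probe set, 1418106_at. Controls 1 to 4 gave 5.44, 5.70, 5.34 and 4.99, and mutants 1 to 4 gave 4.82, 4.79, 4.49 and 4.79. Every mutant lay below every control, with control 4 nearest to the mutants and mutant 3 lowest. The control mean was 5.37 ± 0.30 and the mutant mean 4.72 ± 0.16 (SD, n = 4 each). Their log2 difference was −0.65 (SE 0.14, 95% interval −0.96 to −0.33) or 0.639 of the control signal, with a limma adjusted p of 0.020. Both means were dim, so the fold is one of measured signal near the background of the array. The call was kept in 14 of 17 other settings and lost without mutant 3 (−0.57, adjusted p = 0.0558), without controls 1 and 3 (−0.62, adjusted p = 0.103) and without variance moderation (adjusted p = 0.0815). Averaging sets, or leaving out those that can match more than 1 transcript, did not alter the Hey2 values. Hey2 has a single set, so these settings, counted among the 14, did not test its call. In the fit over probe sets (adjusted p = 0.0325) the call was lost on leaving out any single array but control 4.

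**Figure D3:**
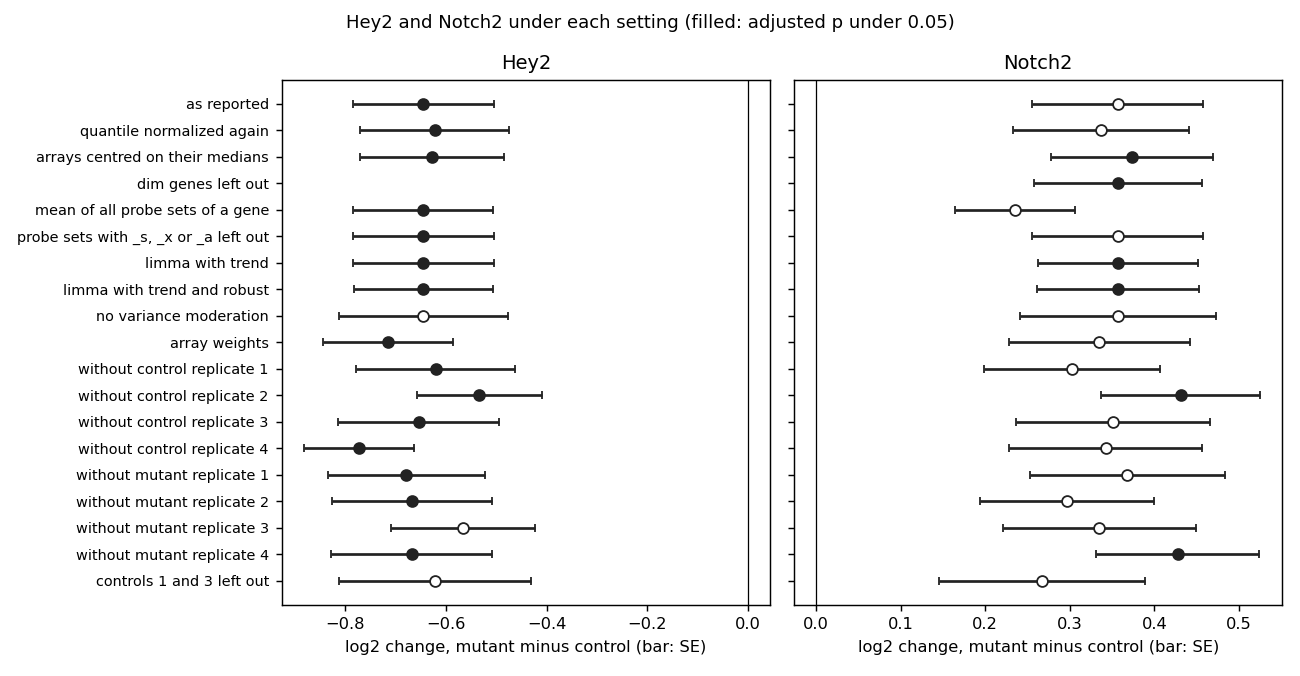
Log2 change (mutant minus control, bar: SE) of Hey2 and Notch2 as reported and under the other settings, each row a setting, with filled points where the limma adjusted p was under 0.05. Hey2 stayed between −0.77 and −0.53 and Notch2 between 0.24 and 0.43, with filled and open points for both; Hey2 has no point where dim genes were left out.

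The promoter of Hey2 is shown because it was the one member that fell, beside that of Notch2, the member with the largest positive change. Sequences are from RefSeq (GRCm38.p6), where 7 of the 10 genes matched 9 windows of 300 bases, from 250 before to 50 after a start site. The windows were searched on both strands for the core letters of the Rbpj motif, TGGGAA, and for its longer form CGTGGGAA, which holds the core. Capitals mark the core (TTCCCA on the opposite strand); the first line of each gene gives the 250 bases before the start, 5′ to 3′ on the gene's strand, for Hey2 at chr10:30842784-30843033 (minus) and for Notch2 at chr3:98013288-98013537 (plus), and the middle line a stretch across the start site of Hey2 at chr10:30842771-30842796 (minus).
Hey2 promoter: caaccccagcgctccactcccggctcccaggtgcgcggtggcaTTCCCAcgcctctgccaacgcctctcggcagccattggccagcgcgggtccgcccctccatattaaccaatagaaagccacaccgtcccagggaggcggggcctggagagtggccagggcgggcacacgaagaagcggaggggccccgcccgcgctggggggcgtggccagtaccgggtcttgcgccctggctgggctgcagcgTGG
Hey2 start site: ggctgcagcgTGGGAAagaacctcca
Notch2 promoter: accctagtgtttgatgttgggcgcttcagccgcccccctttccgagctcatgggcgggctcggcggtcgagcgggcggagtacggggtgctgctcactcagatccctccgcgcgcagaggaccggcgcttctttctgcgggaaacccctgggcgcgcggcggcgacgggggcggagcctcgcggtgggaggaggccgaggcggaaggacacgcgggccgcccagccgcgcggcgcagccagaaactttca

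The Hey2 window held the core at 2 places, on the opposite strand at −207 to −202 from the start site and on the gene's strand at −3 to 3, and both lie within the longer form. Of all 32851 windows of this length, 25.6% held the core, 3.79% held it at least 2 times, 0.734% held the longer form, and 4 windows held the longer form at least 2 times. The windows of Notch1, Notch2, Dll1, Jag1, Jag2 and Hes6 held 0 cores. Hes1, Hey1 and Heyl had no window, so these Hes and Hey genes were not searched and Hey2 is not compared with them. These matches describe the letters in the window and say nothing of binding in these tissues.

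Genes with the most similar course over the 8 arrays were sought for the 3 members with the smallest p, by the root mean square distance between log2 values centred on each gene's own mean. Nearest to Hey2 were Gdap1, a mitochondrial protein of nerve (distance 0.128), Cpeb2, a regulator of translation (0.131), and Amph, an endocytic protein of nerve terminals (0.132), against a root mean square of 0.383 for Hey2 about its own mean. Nearest to Notch2 were Nynrin (0.085), the zinc-finger factor gene Zfp423 (0.087) and Fasn, the fatty acid synthase gene (0.098). Nearest to Hes6 were the kinase gene Stk32c (0.03), Yif1a (0.031) and Nenf (0.032). With 8 arrays in 2 groups such likeness follows mainly the group difference and the spread of single arrays.

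Beyond the 10 genes, 51 of 56 other listed Notch pathway genes were measured, and 10 of them (19.6%) were called, 6 higher (11.8%) and 4 lower (7.84%), against 9.72% of all genes called, 4.20% higher and 5.52% lower. Their median log2 change was 0.008 against −0.011 over all genes. The number called higher dropped to 2 on leaving out control 2, mutant 2 or mutant 3, and to 3 on leaving out control 4, mutant 4 or both controls 1 and 3, and the number called lower was 2 without controls 1 and 3. The calls lay among receptors and ligands, ubiquitin ligases and nuclear cofactors. Which genes were called also depended on the choice of probe set. With the mean of all sets of a gene, Notch4, Dll4, Crebbp, Dtx1 and Kat2b lost their calls. Dlk1 and Fbxw7 gained one, and Tle4, Dner and Dtx4 kept theirs. Ep300 and Spen also stayed called, but each has 1 set, so averaging left their values unchanged and did not test them.

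The endothelial receptor gene Notch4 and the endothelial ligand gene Dll4 rose. Notch4 read 6.71, 6.67, 6.57 and 6.34 on controls and 7.01, 7.07, 6.93 and 7.08 on mutants in 1449146_at, a log2 change of 0.45 (SE 0.082, limma adjusted p = 0.0089). All mutants lay above all controls, while its dimmer sets 1436901_at and 1456263_at differed by −0.02 and −0.09, and with the mean of its 3 sets Notch4 was 0.11 (adjusted p = 0.227). Dll4 read 5.67, 5.53, 5.75 and 5.44 on controls and 5.84, 6.10, 5.81 and 5.98 on mutants in 1421826_at, a log2 change of 0.33 (SE 0.088, limma adjusted p = 0.0445) between dim means, and the call was lost on leaving out any single array but control 3 (0.28 to 0.37 where lost, 0.38 where kept). In the limma fit over probe sets, 1421826_at did not pass (adjusted p = 0.068). The other Dll4 set differed by 0.07. Endothelial markers moved on the same arrays: of 15, 4 rose (Pecam1, Cdh5, Esam and Sox18) and 0 fell, and their mean log2 value ran from 7.88 to 7.98 on controls and from 8.04 to 8.32 on mutants. Their part in the values of Notch4 and Dll4 was not tested.

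Dner, a transmembrane protein with Delta-like repeats found mainly in neurons, fell in both of its sets. The set 1423671_at read 10.20, 10.15, 10.09 and 10.33 on controls and 9.57, 9.65, 9.32 and 9.48 on mutants, a log2 change of −0.69 (SE 0.08, limma adjusted p = 0.0010), and 1456379_x_at differed by −0.73. The groups did not overlap in either set, and the call held in each of 18 other settings. Neuronal markers that fell with it were Stmn2 at −1.95, Tubb3 at −1.38, Elavl4 at −1.22 and the dim Snap25 at −0.76, while Nefl and Nefm rose by 1.63 and 1.53, and their part in the Dner values was not tested. Of the other 4 receptor and ligand genes, Notch3, the mural cell receptor, was at 0.14 (limma adjusted p = 0.176). Dll3, dim in both groups, was at −0.29 (limma adjusted p = 0.0692). Both are named after their values were seen because their groups did not overlap.

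Other Hes genes and Notch targets, the enzymes that add sugars to Notch and the proteases that cut it showed 0 calls in limma. Of 5 Hes and target genes, 1 had an unadjusted p under 0.05, Hes2 at −0.16 (adjusted p = 0.138), and Hes3 was next at 0.09; both were dim. Hes5, a Notch target of neural progenitors named after its values were seen, was at −0.06 on its brightest set. Its second set, 1456010_x_at, read 6.24 to 6.87 in controls and 5.80 to 6.10 in mutants without overlap, a difference of −0.50 with an adjusted p of 0.068 in the fit over probe sets. Of 5 glycosyltransferase genes, 0 had an unadjusted p under 0.05, and all lay between −0.01 and 0.04, with Rfng at 0.04 and Mfng at 0.04. Of 8 protease genes, 1 did, Furin, which cuts Notch on its way to the surface, at −0.20 (adjusted p = 0.109), followed by the gamma-secretase gene Psen2 at −0.14.

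The deltex genes Dtx4 and Dtx1, which encode ubiquitin ligases that bind Notch, fell. Dtx4 read 9.25, 9.68, 9.38 and 9.55 on controls and 8.88, 8.73, 8.28 and 8.51 on mutants in 1436545_at, a log2 change of −0.86 (SE 0.14, limma adjusted p = 0.0043), the largest change in size among the 61 pathway genes measured. Its other set differed by −0.45, the groups did not overlap in either, and the call held in each of 18 other settings. Dtx1 differed by −0.31 (adjusted p = 0.0094) on 1425822_a_at, a set that can match more than 1 transcript. Its dim second set differed by 0.03, and Dtx1 was not called without such sets or without controls 1 and 3, nor with the mean of its sets (−0.14, adjusted p = 0.166). The other 10 genes of this list were not called on their brightest set. Of these, 2 are named after their values were seen. Fbxw7, the gene of a ubiquitin ligase adaptor that marks the Notch intracellular part for degradation, was at −0.17 on its brightest set (adjusted p = 0.372). Its second set, 1451558_at, read 9.57 to 9.62 in controls and 9.20 to 9.30 in mutants, and passed in the fit over probe sets (−0.33, adjusted p = 0.0048). Numbl, a relative of the Notch inhibitor Numb, was at −0.18 (adjusted p = 0.066) and was called where dim genes were left out.

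Among 14 measured genes of the Rbpj complex, 4 rose and 1 fell. Tle4, a co-repressor that Hes proteins recruit, read 10.66, 10.53, 10.61 and 10.69 on controls and 11.01, 11.10, 11.15 and 11.01 on mutants in 1450853_at. Every mutant lay above every control, with a log2 change of 0.45 (SE 0.056, limma adjusted p = 0.0015) that was called in each of 18 other settings. The histone acetyltransferase genes Ep300 and Crebbp were at 0.25 (adjusted p = 0.044) and 0.22 (adjusted p = 0.0456) and the Rbpj co-repressor gene Spen at 0.22 (adjusted p = 0.0218). In the limma fit over probe sets, the brightest sets of Crebbp and Ep300 did not pass (adjusted p = 0.0704 and 0.0679), while that of Spen did. Of the other 3 Crebbp sets, 1 passed in that fit (0.22), and 1436983_at varied from 8.92 to 11.03 within the groups. These 3 calls depended on single arrays: Ep300 was kept without control 1 and lost without any other single array (0.19 to 0.27), Crebbp was kept without control 1 or mutant 1 and lost without any other (0.19 to 0.23), and Spen was lost without control 2, mutant 2 or mutant 3 (0.20 to 0.22). With the mean of its 4 sets Crebbp was not called either (0.26, adjusted p = 0.61). The acetyltransferase gene Kat2b fell by 0.32 on the log2 scale (adjusted p = 0.014) on 1434037_s_at, a set of the same kind, and its 2 dim sets differed by −0.02 and −0.01; it too was not called without controls 1 and 3, nor with the mean of its sets (−0.12, adjusted p = 0.135). Rbpj itself, named after its values were seen, was at 0.06 (95% interval −0.06 to 0.19).

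**Figure D4:**
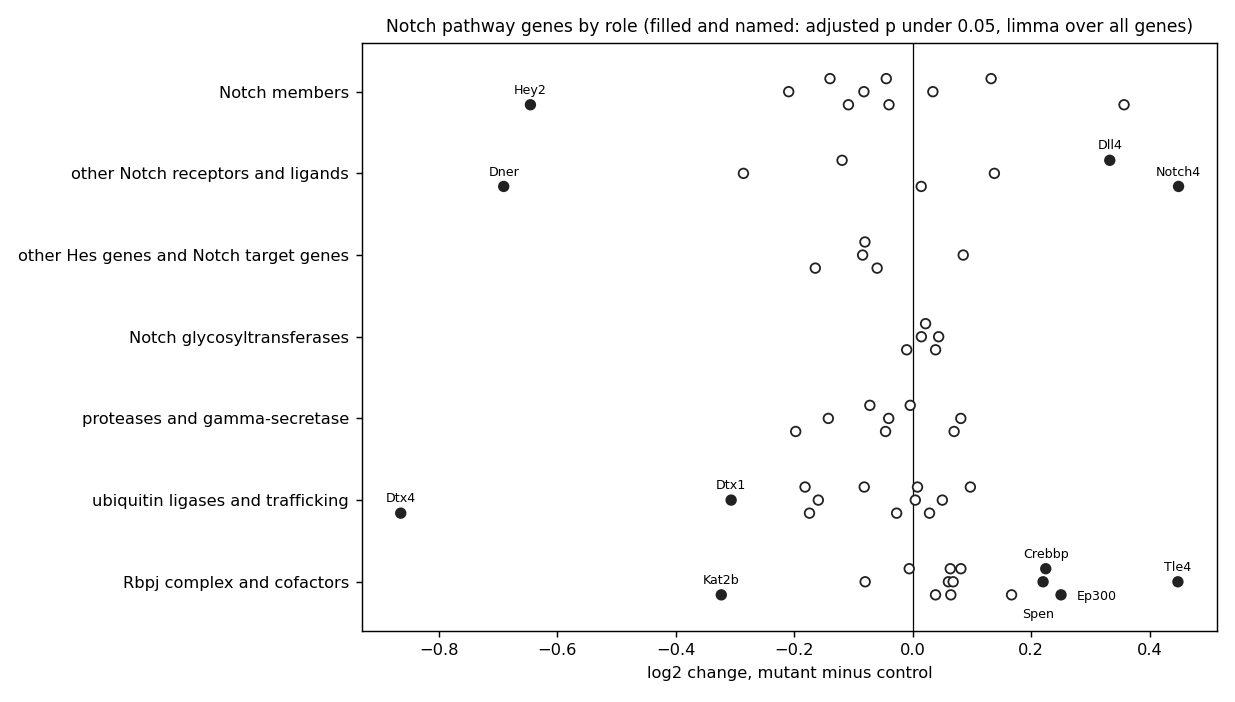
Log2 change (mutant minus control, horizontal axis) of the 10 members and 51 other Notch pathway genes, one row per role and one point per gene, filled and named where the limma adjusted p over all genes was under 0.05. The called genes lie on both sides of 0, from Dtx4 at −0.86 to Notch4 and Tle4 at 0.45, and the glycosyltransferases lie between −0.01 and 0.04.

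The cell type lists set beside these genes moved unequally between the groups. The smooth muscle and pericyte list, cells in which Hey2 and Heyl are known to act, had 3 of 10 genes lower (Tagln, Cspg4 and Acta2) and 0 higher, with list means of 8.39 to 8.69 on controls and 8.05 to 8.5 on mutants. Its defining genes Myh11 and Cnn1 were dim in both groups. The rest of the list was not called: Pdgfrb at 0.09, Kcnj8 at −0.10, Mcam at −0.14, Abcc9 at −0.15 and Rgs5 at −0.79. In Schwann cells and glia 3 of 6 and in macrophages and leukocytes 3 of 8 markers fell and 0 rose, while cranial mesenchyme markers had 1 of 8 higher (Prrx1) and 1 lower (Col1a1). No marker is at 0 on this scale, and the part of these cell types in the Hey2 values was not tested. Mutant 3, lowest of the mutants in 7 of the 10 members, was also lowest of the mutants in the means of the skeletal muscle, smooth muscle, Schwann cell, macrophage, neuronal and endothelial lists.

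**Figure D5:**
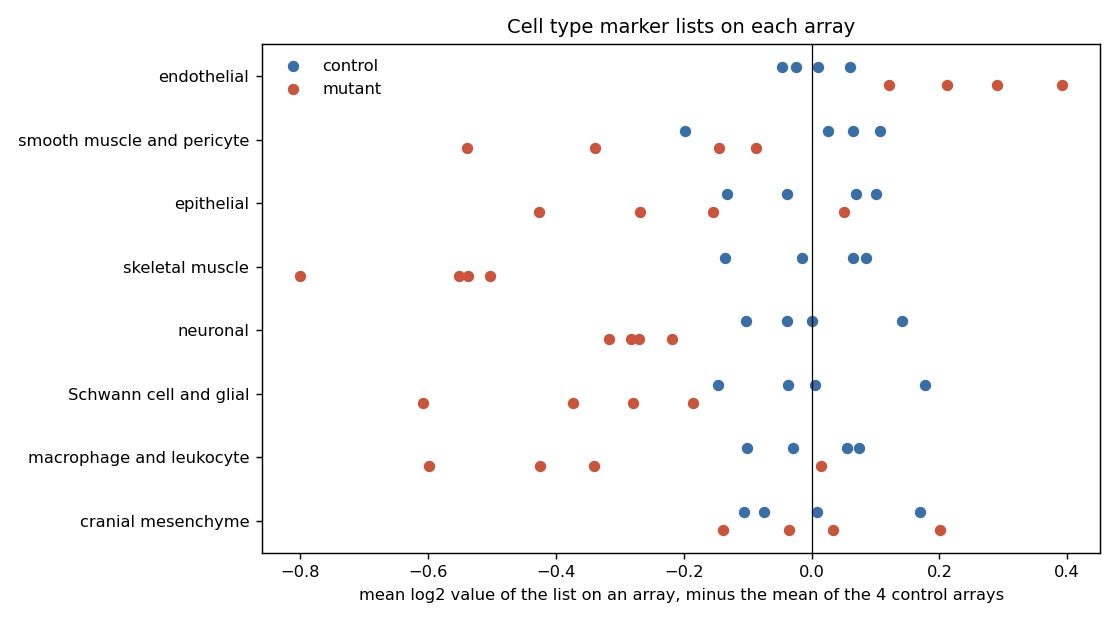
Mean log2 value of each cell type marker list on each array, minus the mean of the 4 control arrays, with controls in blue and mutants in red. Endothelial means are higher on all 4 mutant arrays, skeletal muscle, neuronal and Schwann cell means are lower on all 4, and the mesenchyme means overlap.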

How the data were processed

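Tongue bud RNA of 4 control and 4 mutant mouse embryos was labelled with biotin for Affymetrix arrays, per the labels' protocols. Deposited values, 1 per probe set and array, are on a log2 scale; the submitters' processing notes name RMA, and for its version the sources used here give nothing. RMA subtracts background, equalises the arrays' distributions and summarises probes, so shifts shared by many genes can be removed.

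Probe sets naming 1 gene (34945 of 45101) were kept, named through an annotation of 2016. Each gene was represented by the set with the highest mean over 8 arrays, with no dimness filter. Models were fitted with limma 3.58.1 (R 4.3.3; two-sided, eBayes) over 18193 genes, and separately over all 34945 sets, with Benjamini-Hochberg adjustment. SE is the moderated standard error. Simulated data held independent noise for each gene and far fewer changed genes than were called here, so rates from them need not carry over. On them the procedure recovered 73 of 100 log2 changes of 0.5 and 95 of 100 of 1, with 5 false calls. Smaller changes can therefore be missed. Members and gene lists were chosen with earlier results of these data known. Every member was named, and of the other lists each called gene and the 2 with the smallest p. Other settings tried were a block on the replicate number, normalization, centring, a dimness filter, probe set choice, variance moderation, array weights and left-out arrays. The number of arrays limits the precision.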

Additional observations from a re-analysis of the deposited data

Results flagged for a closer look

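A single array stood apart from the other 3 of its group (gap over range above the 95% critical value of Dixon's test) in 4 of the 36 groups of 4 examined over the 18 probe sets; chance gives about 1 in 20. For Hey2 1418106_at, mutant 3 read 4.49 against 4.79 to 4.82 on the other mutants. For Jag2, mutant 4 read 7.90 against 7.73 to 7.75 in 1426430_at and 7.40 against 6.93 to 6.99 in 1426431_at. For the dim Notch2 set 1451889_at, control 4 read 5.03 against 4.91 to 4.92. The cause of these gaps was not tested.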

How the results depend on the processing

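Hey2 kept its direction in every setting in which it was tested. The number of members called higher, 0 as reported, was 1 (Notch2) with arrays centred, with dim genes left out and with trend, robust or not, and 0 to 1 with 1 array left out. The number called lower, 1, was 0 with dim genes left out, where Hey2 is not tested, without variance moderation and without controls 1 and 3, and 0 to 1 with 1 array left out. Other pathway genes called higher, 6, numbered 3 with dim genes left out, without moderation and without controls 1 and 3, and 2 to 6 with 1 array left out. With dim genes left out, 36 of the 51 other genes were above the cut, and Notch4, Dll4 and Spen were not tested. Other pathway genes called lower, 4, numbered 2 without controls 1 and 3 and 4 to 5 with 1 array left out. With the sets of each gene averaged, 4 were higher (Dlk1, Ep300, Spen and Tle4) and 3 lower (Dner, Dtx4 and Fbxw7). With multi-transcript sets left out 5 were higher (Notch4, Dll4, Dlk1, Ep300 and Tle4) and the same 3 lower. Member probe sets called, 1, numbered 0 to 1 with 1 array left out. Reversed signs were Dtx1 at 0.025 with multi-transcript sets left out, Hey1 at −0.0061 without controls 1 and 3 (−0.023, without mutant 1, to 0.084 with 1 array left out), and Heyl at 0.032 without mutant 3 (−0.084 to 0.032 with 1 array left out). With the replicate number as a block, 1 member was higher (Notch2, adjusted p = 0.0406) and 1 lower (Hey2), 2 other genes were higher and 4 lower, and 0 member probe sets were called; same-numbered arrays did not deviate together (correlations −0.40, 0.02, −0.18 and −0.16), so the number was not taken as a pairing. Beyond fewer genes or arrays, the cause of these moves was not tested.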
